A study of Homo sapiens with 30 samples.

Results

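Caco2 cells that carried a SETDB1 hairpin were compared with each other after sorting on KRT20: 3 KRT20-positive libraries against 3 KRT20-negative libraries, 6 of the 30 libraries of the series. They were chosen by their titles alone, without use of any measured value, and all genes were compared. Caco2 is an established human colorectal cancer cell line. Both fractions carry a hairpin against SETDB1, introduced by retrovirus under puromycin selection, so that the comparison asks what goes with KRT20 among hairpin cells. Beside them stand 3 Caco2 libraries with a scrambled hairpin in differentiation medium, which holds troglitazone (10 uM) and 1α,25-dihydroxyvitamin D3 (25 nM), and 3 with the scrambled hairpin in vehicle. The labels used here do not say how the cells were sorted, in which medium the sorted cells had grown, whether more than 1 hairpin was used, or whether libraries of a group came from separate cultures. The p-values below therefore measure the spread between these libraries, which may be technical. Expression was read as 3′ tags by QuantSeq, and levels are given as CPM, counts scaled to a common library size.

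SETDB1 is a histone methyltransferase that places trimethylation on lysine 9 of histone H3, a mark of silenced chromatin. KRT20 encodes keratin 20, an intermediate filament protein of the upper crypt and the surface epithelium of the gut, and it is widely used as a marker of differentiated intestinal cells. In the normal epithelium, stem and progenitor cells at the crypt base depend on Wnt signalling, and their daughters become absorptive enterocytes or secretory cells such as goblet cells as they move up. Caco2 cells are known to take on features of small intestinal enterocytes, with microvilli and disaccharidases, when they stay confluent in culture.

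The depth of the 6 sorted libraries ran from 7157080 to 10074838 counts, and that of the 6 scramble libraries from 6538087 to 8701880, so that 3 counts, the floor for an undetected gene, stood for 0.304 to 0.461 CPM. Replicates of the 12 Caco2 libraries had a Spearman's rho of 0.967 to 0.974 across genes. KRT20-negative replicate 3 stood apart. It lay above the other 5 sorted libraries in 38 of 42 listed fibroblast markers, of which 0 were at 0 in all 6 libraries, and 60 genes of at least 10 CPM there exceeded 2 times the highest other sorted library, against 0 such genes in each of the other 5. COL6A3, a collagen VI chain, had 14.4, 7.43 and 7.07 CPM in KRT20-positive cells, against 9.81, 7.26 and 264 CPM in KRT20-negative cells. Without fibronectin, the fibroblast markers summed to 1265 to 1328 CPM in the KRT20-positive libraries, against 1222, 1233 and 2459 CPM in the KRT20-negative libraries. For several results that this library touches, the value without it is given as well.

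KRT20 itself checked the sort. It had 35.0, 37.8 and 25.9 CPM in KRT20-positive cells, against 1.03, 1.76 and 1.11 CPM in KRT20-negative cells, and the fractions did not overlap. Since the fractions were sorted on it, this is no result. In scramble cells KRT20 had 8.84, 8.14 and 6.06 CPM in differentiation medium, against 0.982, 0.807 and 1.23 CPM in vehicle. SETDB1, the target of the hairpin, had 19.7, 23.1 and 26.1 CPM in KRT20-positive cells, against 19.5, 23.8 and 21.0 CPM in KRT20-negative cells, a log2 fold change of 0.10 (SE 0.13, edgeR adjusted p = 0.766), and was not called different between the fractions. In scramble cells SETDB1 had 32.7, 32.1 and 37.9 CPM in differentiation medium, against 32.2, 31.2 and 28.9 CPM in vehicle, above all 6 hairpin libraries. Of 23 tested genes of SETDB1 and the complexes that work with it, among them the HUSH subunits, 0 were called at 5% FDR by edgeR's quasi-likelihood test, 1 was lower by DESeq2 and 3 had an unadjusted p under 0.05. The median log2 fold change was -0.04. ATF7IP, the partner protein of SETDB1, had 292, 314 and 319 CPM in KRT20-positive cells, against 395, 365 and 339 CPM in KRT20-negative cells, a log2 fold change of -0.25 (SE 0.07, edgeR adjusted p = 0.0599). It was lower with the replicate number as a block (edgeR adjusted p = 0.0238) and without KRT20-negative replicate 3 (edgeR adjusted p = 0.00766).

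Because the sequence upstream of the marker and of the genes that moved with it may be of use beside these values, 6 promoters are shown here, from 250 bases before to 50 bases after the start, 5′ to 3′ on the gene's strand. They are RefSeq sequences on GRCh38.p14, a later build than the hg19 of the deposited counts. Capitals mark letters that match 1 of 8 short motifs searched on both strands. KRT20 (chr17:40885193-40885492, - strand) held none of them, CEACAM5 (chr19:41708376-41708675, + strand) a KLF motif, its paralog CEACAM6 (chr19:41755280-41755579, + strand) none, MUC13 (chr3:124934702-124935001, - strand) an AP-1 and an HNF4 motif, FABP1 (chr2:88128013-88128312, - strand) a CDX motif, and FGA (chr4:154590693-154590992, - strand), a gene of the opposite direction, an HNF1 motif.
KRT20: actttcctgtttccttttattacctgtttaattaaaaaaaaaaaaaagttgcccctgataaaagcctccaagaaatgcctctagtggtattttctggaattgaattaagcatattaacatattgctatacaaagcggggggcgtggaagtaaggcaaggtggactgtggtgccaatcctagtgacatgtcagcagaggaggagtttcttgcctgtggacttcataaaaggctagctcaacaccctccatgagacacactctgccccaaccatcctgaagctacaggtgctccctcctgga
CEACAM5: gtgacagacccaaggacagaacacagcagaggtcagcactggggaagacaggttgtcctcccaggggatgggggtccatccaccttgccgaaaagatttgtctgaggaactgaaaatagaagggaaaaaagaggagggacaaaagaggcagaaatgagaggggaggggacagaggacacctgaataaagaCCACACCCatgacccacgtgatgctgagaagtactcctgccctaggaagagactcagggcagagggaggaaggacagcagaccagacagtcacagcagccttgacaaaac
CEACAM6: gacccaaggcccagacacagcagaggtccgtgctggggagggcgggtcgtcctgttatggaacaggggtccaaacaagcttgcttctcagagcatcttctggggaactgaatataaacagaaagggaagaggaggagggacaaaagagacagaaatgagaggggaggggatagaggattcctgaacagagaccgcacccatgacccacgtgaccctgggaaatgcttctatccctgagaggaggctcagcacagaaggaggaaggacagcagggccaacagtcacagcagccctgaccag
MUC13: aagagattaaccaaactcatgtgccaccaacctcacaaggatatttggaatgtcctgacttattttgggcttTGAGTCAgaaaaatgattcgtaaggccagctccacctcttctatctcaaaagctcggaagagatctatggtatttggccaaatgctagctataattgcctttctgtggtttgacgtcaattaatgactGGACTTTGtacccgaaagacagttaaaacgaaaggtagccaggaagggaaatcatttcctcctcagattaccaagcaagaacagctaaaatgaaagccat
FABP1: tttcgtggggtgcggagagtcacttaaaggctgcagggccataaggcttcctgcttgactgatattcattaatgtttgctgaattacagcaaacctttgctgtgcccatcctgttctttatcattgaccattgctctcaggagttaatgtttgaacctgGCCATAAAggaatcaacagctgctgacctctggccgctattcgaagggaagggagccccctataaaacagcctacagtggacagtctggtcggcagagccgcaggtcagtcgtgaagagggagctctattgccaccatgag
FGA: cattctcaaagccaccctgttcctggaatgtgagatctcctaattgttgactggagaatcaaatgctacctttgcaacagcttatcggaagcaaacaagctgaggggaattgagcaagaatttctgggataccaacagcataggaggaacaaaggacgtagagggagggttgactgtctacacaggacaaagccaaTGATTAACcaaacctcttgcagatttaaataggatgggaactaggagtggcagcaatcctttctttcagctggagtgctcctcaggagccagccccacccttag

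The letters searched were GCNATAAA for CDX, CAAAGTCC for HNF4, GTTAATNA for HNF1, AGATAA for GATA, TGA and TCA with any 1 base between them for AP-1, GGGTGTGG for KLF, TTTNGCGC for E2F and CTTTGATC for TCF, where N stands for any base, and no motif contains another. Of 35093 promoters of the table, the CDX letters were in 2.48%, HNF4 in 1.2%, HNF1 in 2.43%, GATA in 10.3%, AP-1 in 7.71%, KLF in 3.28%, E2F in 1.79% and TCF in 0.653%. Counted per gene, 10129 of the 13968 tested genes had a promoter in the table. The GATA letters were in 21.4% of the 56 genes at least 2-fold higher in KRT20-positive cells that had one, against 7.99% of all 10129. The same shares were 17.9% against 7.12% for AP-1, 12.5% against 4.22% for KLF and 7.14% against 1.65% for HNF4. For the other motifs they were 5.36% against 2.14% (HNF1), 3.57% against 2.41% (CDX), 1.79% against 0.484% (TCF) and 0% against 3.5% (E2F). Of the 17 genes at least 2-fold lower that had a promoter, 17.6% held the AP-1 letters, 11.8% the GATA and 11.8% the HNF1 letters, and 5.88% the KLF letters. The HNF4, CDX, E2F and TCF letters were in 0 of them. Among called genes of any fold change with a promoter, the HNF4 letters were in 3.24% of 216 higher and 3.53% of 170 lower ones. A match is only a run of letters, these shares carry no test, and letters that are missing in this window say nothing of the factor.

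Between KRT20-positive and KRT20-negative cells, intestinal genes were higher and a smaller set of Wnt target genes, plasma protein genes and matrix genes was lower. LGALS4, CEACAM5, FCGBP and MAOA were more than 4-fold higher in KRT20-positive cells, and LAMA1 was more than 8-fold lower. Of 13968 tested genes, 570 were called at 5% FDR (4.08%), with 321 higher (2.3%) and 249 lower (1.78%) in KRT20-positive cells by edgeR's quasi-likelihood test with Benjamini-Hochberg adjustment. Only 114 of them (0.816%) changed by 2-fold or more, 82 higher and 32 lower. The 6 libraries did not overlap for 2764 of all tested genes (19.8%) and for 566 of the 570 called ones, which follows largely from the call itself. This fit does not pair the libraries by replicate number. With the number as a block, 803 genes were called, 427 higher and 376 lower. The fit takes the spread from all 12 Caco2 libraries, the scramble ones included. With the 6 sorted libraries alone, 307 genes were called, 212 higher and 95 lower. The calls also rest in part on the KRT20-positive libraries: without replicate 1, 2 or 3 of that fraction, 297, 358 and 305 genes were called, while 651 were called without KRT20-negative replicate 3.

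**Figure D1:**
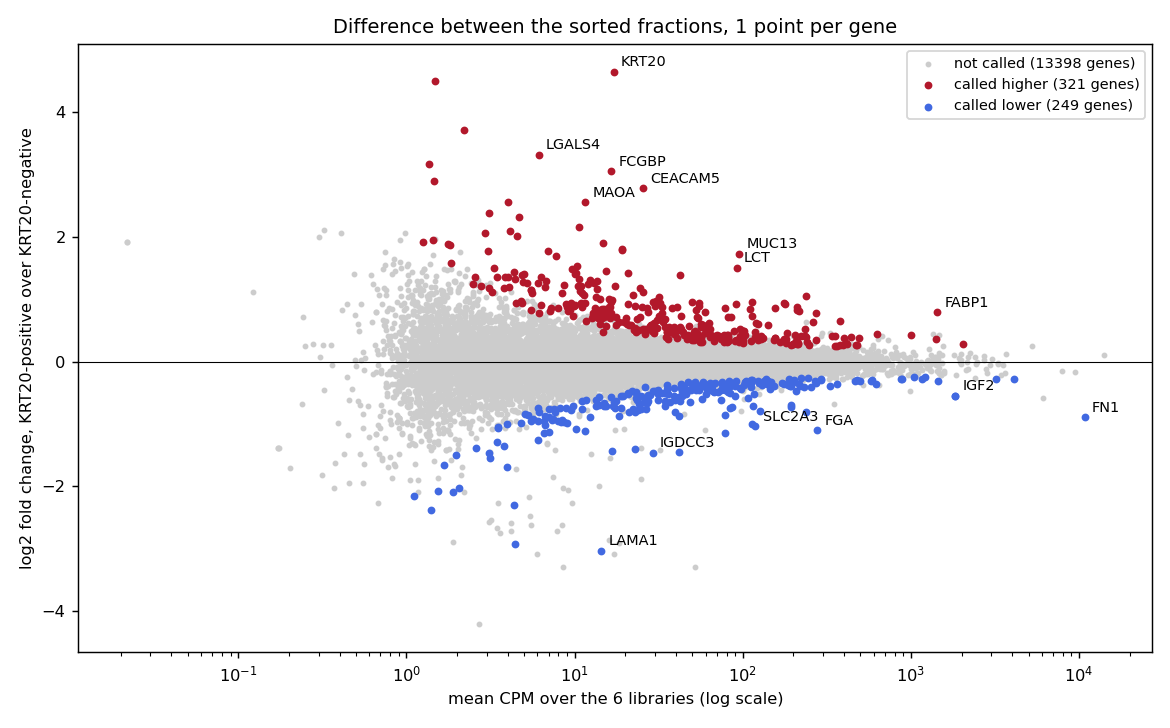
Log2 fold change of KRT20-positive over KRT20-negative cells (vertical axis) against the mean CPM over the 6 sorted libraries (horizontal log axis), 1 point per tested gene, with the 321 higher genes in red and the 249 lower genes in blue. Grey points are the 13398 genes not called; COL6A3 is among them, with 264 CPM in KRT20-negative replicate 3 and at most 14.4 CPM in the other 5 sorted libraries.

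Several genes of the mature absorptive cell rose. Of the tested members of the absorptive enterocyte and colonocyte list, 10 of 27 were higher and 0 lower, with a median log2 fold change of 0.25 and 23 of 27 above 0, against a median of -0.00 over all tested genes. The count was 10 or 11 with each library left out. LGALS4, galectin 4, a lectin of the apical surface of gut epithelium, had 10.8, 12.7 and 9.83 CPM in KRT20-positive cells, against 1.37, 0.703 and 1.22 CPM in KRT20-negative cells, a log2 fold change of 3.32 (SE 0.32, edgeR adjusted p = 2.45e-07). Each KRT20-positive library exceeded all 9 other Caco2 libraries in LGALS4. CEACAM5, the cell surface glycoprotein known as carcinoembryonic antigen, had 46.1, 40.3 and 47.6 CPM in KRT20-positive cells, against 7.98, 7.50 and 4.05 CPM in KRT20-negative cells, a log2 fold change of 2.79 (SE 0.21, edgeR adjusted p = 9.11e-09). Its lowest KRT20-negative value was in replicate 3, without which the log2 fold change was 2.52. CEACAM6, the paralog shown above, had 13.8, 11.5 and 10.4 CPM in KRT20-positive cells, against 4.56, 2.93 and 3.44 CPM in KRT20-negative cells, a log2 fold change of 1.70 (SE 0.21, edgeR adjusted p = 8.15e-06), but its level in scramble cells in differentiation medium was higher still, at 35.4, 28.9 and 30.7 CPM. CEACAM1 rose to 14.6 against 6.33 CPM on average in KRT20-positive against KRT20-negative cells. How tags in sequence shared by CEACAM paralogs were assigned is not given in the sources used here.

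Among fatty acid binding and lipid export genes, FABP1, FABP2 and MTTP rose, while the list as a whole went both ways, with 3 of 23 higher, 2 lower and a median of -0.03. FABP1, the liver-type fatty acid binding protein that small intestinal enterocytes also make, had 1895, 1659 and 1873 CPM in KRT20-positive cells, against 1161, 1024 and 953 CPM in KRT20-negative cells, a log2 fold change of 0.79 (SE 0.08, edgeR adjusted p = 1.35e-06). FABP1 had the largest gain in CPM of all called genes. FABP2, the intestinal fatty acid binding protein, was near the floor: 64 counts in the 3 KRT20-positive libraries together against 3 counts in the KRT20-negative libraries, a ratio of 25.8 with an exact 95% interval of 8.44 to 128 that covers counting error only. MTTP, the transfer protein that loads lipid onto apolipoprotein B, had 60.3, 58.9 and 64.2 CPM in KRT20-positive cells, against 24.3, 25.8 and 19.9 CPM in KRT20-negative cells, a log2 fold change of 1.39 (SE 0.15, edgeR adjusted p = 1.79e-06). MTTP thus rose in KRT20-positive cells, whereas its level in scramble cells was 2.36, 2.92 and 1.16 CPM in differentiation medium, against 5.16, 3.36 and 2.61 CPM in vehicle. The group in medium was the lower on average, and the 2 groups overlapped. The main apolipoproteins were not called: APOB, APOA1, APOA2, APOC3 and APOE had log2 fold changes of -0.21, -0.03, -0.04, 0.11 and -0.12. The lower members of the list were APOH and APOM; the count lower was 1 when KRT20-negative replicate 3 or any 1 KRT20-positive library was left out.

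Targets of the PPAR receptors, which sense fatty acids and switch on their oxidation, had 9 of 31 higher and 0 lower, with a median of 0.14, and 7 to 9 higher with each library left out. CPT1A, the carnitine transferase that admits long fatty acids to mitochondria, had 228, 221 and 240.0 CPM in KRT20-positive cells, against 120.0, 117 and 122 CPM in KRT20-negative cells, a log2 fold change of 0.94 (SE 0.08, edgeR adjusted p = 1.07e-08). PDK4, the kinase that restrains pyruvate oxidation, averaged 24.4 ± 1.25 CPM in KRT20-positive and 10.4 ± 1.59 CPM in KRT20-negative cells (SD, n = 3 each), and the lipid droplet protein PLIN2 averaged 503 ± 21.6 CPM in KRT20-positive and 383 ± 20.8 CPM in KRT20-negative cells (SD, n = 3 each). FABP1, ACSL5, TXNIP and CREB3L3 were also among the higher members. ANGPTL4, also a PPAR target, had a log2 fold change of -0.67 and was not called.

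Brush border genes rose in part. The list of hydrolases and microvillus proteins had 6 of 29 higher and 0 lower, with a median of 0.24 and 3 to 6 higher with each library left out. LCT, lactase, which splits milk sugar at the brush border, had 140.0, 132 and 136 CPM in KRT20-positive cells, against 45.3, 53.1 and 45.1 CPM in KRT20-negative cells, a log2 fold change of 1.51 (SE 0.10, edgeR adjusted p = 1.15e-09). The order of the 4 Caco2 groups was the same in every library, since scramble cells had 15.6, 15.2 and 12.8 CPM in differentiation medium, against 2.70, 1.88 and 3.68 CPM in vehicle. SLC15A1, the peptide transporter PEPT1, had 12.01 against 6.73 CPM on average in KRT20-positive against KRT20-negative cells, a log2 fold change of 0.83 (SE 0.18, edgeR adjusted p = 0.00767). The microvillus proteins ANKS4B, PLS1 and BAIAP2L2 rose by log2 fold changes of 0.72, 0.51 and 0.60, and BAIAP2L2 was not called without KRT20-positive replicate 1 (edgeR adjusted p = 0.125). Several classical enzymes of the membrane did not pass the test: SI (sucrase-isomaltase) had 1.65, 2.12 and 2.10 CPM in KRT20-positive cells, against 2.17, 2.23 and 2.13 CPM in KRT20-negative cells. DPP4 had 42.5, 35.8 and 42.3 CPM in KRT20-positive cells, against 41.5, 55.2 and 35.7 CPM in KRT20-negative cells, ALPI (intestinal alkaline phosphatase) had 3.02, 2.39 and 2.10 CPM in KRT20-positive cells, against 1.60, 1.76 and 3.54 CPM in KRT20-negative cells, and in both the fractions overlapped. ANPEP had 4.11, 5.31 and 5.37 CPM in KRT20-positive cells, against 2.51, 3.63 and 17.3 CPM in KRT20-negative cells, where 1 KRT20-negative library, replicate 3, lay above the rest. Villin, encoded by VIL1, averaged 80.4 ± 6.12 CPM in KRT20-positive and 76.0 ± 2.31 CPM in KRT20-negative cells (SD, n = 3 each) and was not called.

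**Figure D2:**
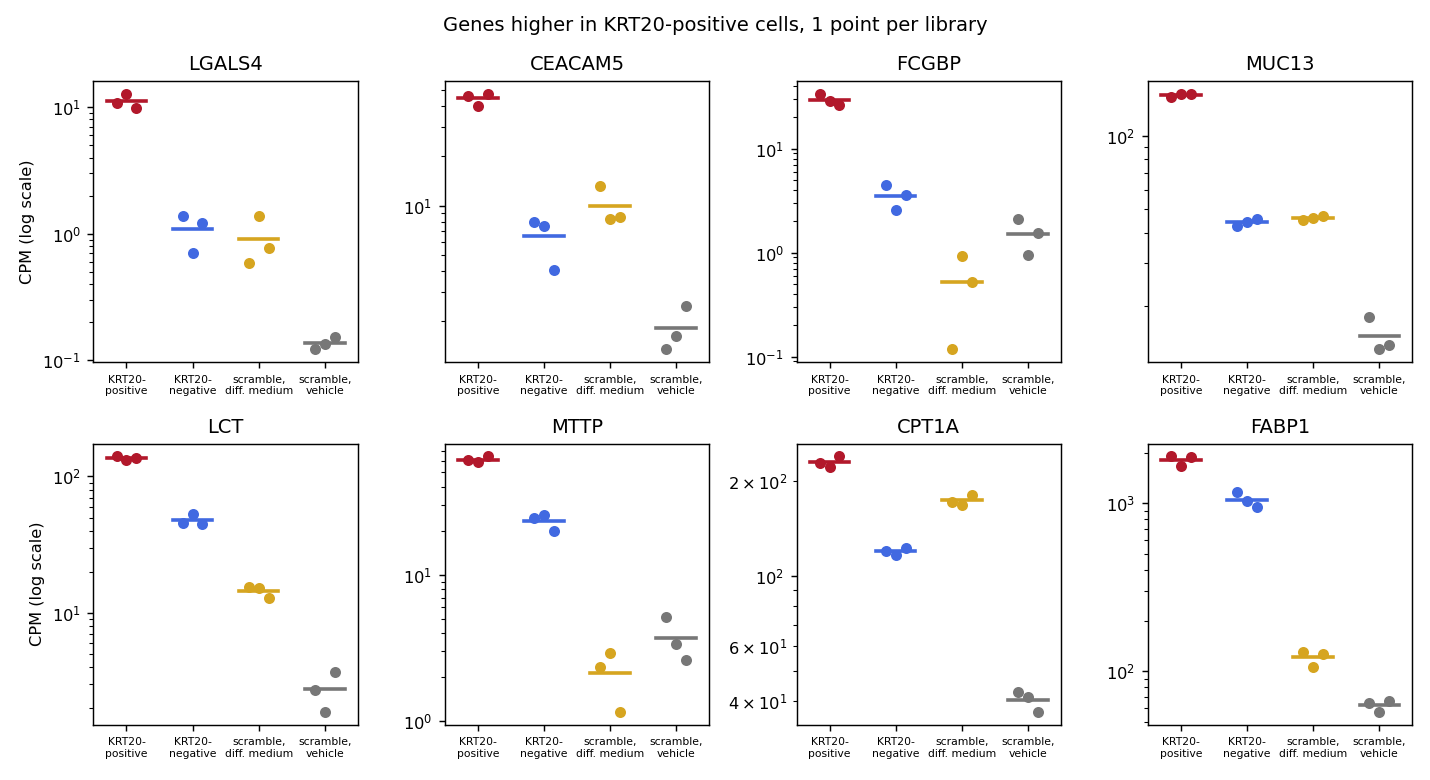
CPM (vertical log axis, scaled per panel) of 8 genes called higher in KRT20-positive cells, 1 point per library and a bar at the group mean, in the 4 Caco2 groups. In each panel the 3 KRT20-positive libraries lie above the 9 others; LCT stands at 132 to 140 CPM there, against 45.1 to 53.1 CPM in KRT20-negative cells.

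Several goblet cell and mucin genes rose as well. Of the tested goblet cell list, 8 of 18 were higher and 0 lower, with a median of 0.32 and 5 to 7 higher with each library left out. MUC13, a transmembrane mucin that absorptive and goblet cells both carry, had 144, 148 and 148 CPM in KRT20-positive cells, against 42.4, 44.2 and 45.5 CPM in KRT20-negative cells, a log2 fold change of 1.74 (SE 0.09, edgeR adjusted p = 1.34e-11), and the spread within each fraction was a few CPM. FCGBP, a mucus protein of goblet cells, had 33.7, 28.8 and 26.1 CPM in KRT20-positive cells, against 4.45, 2.58 and 3.54 CPM in KRT20-negative cells, a log2 fold change of 3.06 (SE 0.24, edgeR adjusted p = 9.11e-09). In scramble cells FCGBP was lower in medium, with 0.118, 0.922 and 0.516 CPM in differentiation medium, against 2.09, 0.941 and 1.53 CPM in vehicle; of the tested goblet list, 2 were higher and 6 lower in medium. MUC2, the gel-forming mucin of the colon, was low throughout, at 4.11, 5.31 and 6.29 CPM in KRT20-positive cells, against 1.25, 0.351 and 1.32 CPM in KRT20-negative cells, and passed the test (edgeR adjusted p = 0.00301). MUC17, a transmembrane mucin, averaged 7.23 ± 1.24 CPM in KRT20-positive and 1.79 ± 0.699 CPM in KRT20-negative cells (SD, n = 3 each), and BCAS1, KLK1, ST6GALNAC1 and REP15 were the other higher members. TFF3, the trefoil peptide that goblet cells secrete, was not called: it had 112, 122 and 120.1 CPM in KRT20-positive cells, against 121, 141 and 147 CPM in KRT20-negative cells, with a log2 fold change of -0.21 (SE 0.09, edgeR adjusted p = 0.262). The goblet factors ATOH1 and SPDEF did not pass the filter on low counts.

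The other secretory lineages gave few calls. Of the enteroendocrine list 0 of 14 were higher and 1 was lower, SCGN, with 81.4 against 101 CPM in KRT20-positive against KRT20-negative cells, and SCGN was not called without KRT20-positive replicate 1 or 2 (edgeR adjusted p up to 0.154). Of tuft and Paneth cell genes, lysozyme rose and PLA2G2A fell. LYZ had 69.0, 72.2 and 71.7 CPM in KRT20-positive cells, against 49.7, 52.4 and 44.7 CPM in KRT20-negative cells, a log2 fold change of 0.54 (SE 0.09, edgeR adjusted p = 0.00059), and PLA2G2A, a secreted phospholipase of Paneth cells, had 50.3, 47.9 and 49.1 CPM in KRT20-positive cells, against 104, 106 and 115 CPM in KRT20-negative cells, a log2 fold change of -1.14 (SE 0.09, edgeR adjusted p = 9.11e-09). These 2 antimicrobial genes thus moved in opposite directions. In bulk libraries, a larger share of cells with a gene and more RNA per cell cannot be told apart.

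Drug and bile acid metabolism contributed 8 of 34 higher genes and 0 lower, with a median of 0.34 and 6 to 8 higher with each library left out. CYP1A1, the cytochrome induced by the aryl hydrocarbon receptor, had 14.5, 13.9 and 17.8 CPM in KRT20-positive cells, against 4.79, 7.15 and 4.15 CPM in KRT20-negative cells, a log2 fold change of 1.53 (SE 0.20, edgeR adjusted p = 1.78e-05). The KRT20-negative cells were the low group here, since scramble cells had 12.6, 13.5 and 10.06 CPM in differentiation medium, against 17.6, 17.2 and 17.6 CPM in vehicle. ABCG2, an efflux pump of the apical membrane, was also lowest in KRT20-negative cells, with 15.8, 14.1 and 16.1 CPM in KRT20-positive cells, against 6.16, 7.97 and 5.67 CPM in KRT20-negative cells and 13.4, 15.2 and 15.8 CPM in scramble cells in vehicle. Some bile acid genes of the ileum were higher at low levels. SLC10A2, the sodium-dependent uptake transporter, had 7.68, 7.30 and 5.76 CPM in KRT20-positive cells, against 1.48, 1.41 and 0.608 CPM in KRT20-negative cells. FABP6, the ileal bile acid binding protein, had 3.98, 3.45 and 4.85 CPM in KRT20-positive cells, against 0.684, 0.117 and 0.101 CPM in KRT20-negative cells, and NR1H4, the bile acid receptor FXR, had 8.23, 6.37 and 7.07 CPM in KRT20-positive cells, against 2.97, 3.75 and 1.52 CPM in KRT20-negative cells. FXR itself was not called without KRT20-positive replicate 1 or 3 (edgeR adjusted p up to 0.0842). The FXR targets FGF19, NR0B2 and SLC51A had log2 fold changes of -0.18, 0.15 and 0.95 and were not called. MAOA, monoamine oxidase A, which was in none of the lists, had 20.2, 18.973 and 20.2 CPM in KRT20-positive cells, against 2.62, 3.16 and 4.15 CPM in KRT20-negative cells, a log2 fold change of 2.56 (SE 0.26, edgeR adjusted p = 4.89e-07). MAOA was at or under 1.69 CPM in all 6 scramble libraries.

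Vitamin D receptor targets, a list chosen because 1α,25-dihydroxyvitamin D3 was in the medium, had 5 of 25 higher and 0 lower, and its median was 0.05. They were SLC37A2, CYP2B6, S100G, CLMN and CDKN1A. Without KRT20-positive replicate 1 only 3 were higher, CLMN and CDKN1A being lost, and without KRT20-negative replicate 2 there was 1 lower. CYP24A1, the enzyme that degrades vitamin D and the target most used as its readout, had 183, 185 and 170.1 CPM in KRT20-positive cells, against 157, 165 and 116 CPM in KRT20-negative cells, a log2 fold change of 0.30 (SE 0.11, edgeR adjusted p = 0.134), and was not called. Its values in scramble cells were 197, 193 and 192 CPM in differentiation medium, against 0.982, 0.269 and 0.614 CPM in vehicle. Every sorted library thus lay between the cells in vehicle and those in medium, closer to those in medium. S100G, an intestinal calcium binding protein, had 2.33, 2.92 and 2.49 CPM in KRT20-positive cells, against 0.228, 0.586 and 0.203 CPM in KRT20-negative cells, and the calcium channel gene TRPV6 had 6.03, 5.31 and 3.93 CPM in KRT20-positive cells, against 3.88, 5.15 and 5.77 CPM in KRT20-negative cells and was not called.

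Ion and water transport had 5 of 24 higher and 0 lower, and 2 to 4 higher with each library left out. SLC26A3, the chloride and bicarbonate exchanger of the colon surface, had 16.6, 24.4 and 15.2 CPM in KRT20-positive cells, against 8.21, 9.14 and 7.80 CPM in KRT20-negative cells, a log2 fold change of 1.16 (SE 0.22, edgeR adjusted p = 0.00175). The guanylin peptide and its receptor were both higher: GUCA2A had 7.02 against 2.90 CPM and GUCY2C 42.8 against 26.5 CPM on average in KRT20-positive against KRT20-negative cells, although GUCY2C was not called when any 1 of 5 libraries was left out (edgeR adjusted p up to 0.165). KCNK5 and CA12 also lost the call when any 1 of 5 libraries was left out. Cell junction and adhesion genes had 5 of 39 higher and 0 lower (3 higher without KRT20-positive replicate 1 or 2), among them the claudins CLDN2 and CLDN4 and the integrins ITGA2 and ITGB4 at log2 fold changes of 0.58, 0.27, 0.78 and 0.44. CLDN4 was not called when any 1 of 4 libraries was left out, among them KRT20-negative replicate 3.

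Among transcription factors of the intestine, 4 of 25 were higher and 2 lower, and 1 was higher and 1 lower without KRT20-positive replicate 1, and 2 higher and 2 lower without KRT20-positive replicate 3. EHF, an epithelial ETS factor, had 18.2, 17.9 and 20.7 CPM in KRT20-positive cells, against 10.7, 9.25 and 8.30 CPM in KRT20-negative cells, a log2 fold change of 1.01 (SE 0.16, edgeR adjusted p = 0.000236). Its relative ELF3 averaged 232 ± 1.52 CPM in KRT20-positive and 186 ± 6.61 CPM in KRT20-negative cells (SD, n = 3 each), a log2 fold change of 0.32 (SE 0.07, edgeR adjusted p = 0.013), and ELF3 was not called without KRT20-positive replicate 1 (edgeR adjusted p = 0.0598). SOX2, a factor of stomach and pluripotent cells, fell: it had 3.43, 4.51 and 5.24 CPM in KRT20-positive cells, against 9.35, 9.25 and 10.3 CPM in KRT20-negative cells, a log2 fold change of -1.13 (SE 0.18, edgeR adjusted p = 0.000289), beside 45.3, 44.3 and 46.5 CPM in scramble cells in vehicle. The factors most tied to intestinal identity were not called. CDX2 had 657, 686 and 699.8 CPM in KRT20-positive cells, against 654, 606 and 695 CPM in KRT20-negative cells, HNF4A had 506, 485 and 470.5 CPM in KRT20-positive cells, against 539, 519.7 and 391 CPM in KRT20-negative cells and KLF5 had 225, 239 and 224 CPM in KRT20-positive cells, against 211, 215 and 188 CPM in KRT20-negative cells, with log2 fold changes of 0.06, 0.01 and 0.16. KLF4, a factor of differentiated gut cells, had 7.13, 10.3 and 8.91 CPM in KRT20-positive cells, against 7.30, 4.69 and 3.34 CPM in KRT20-negative cells, a log2 fold change of 0.79 (SE 0.27, edgeR adjusted p = 0.118), with overlap between the fractions.

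**Figure D3:**
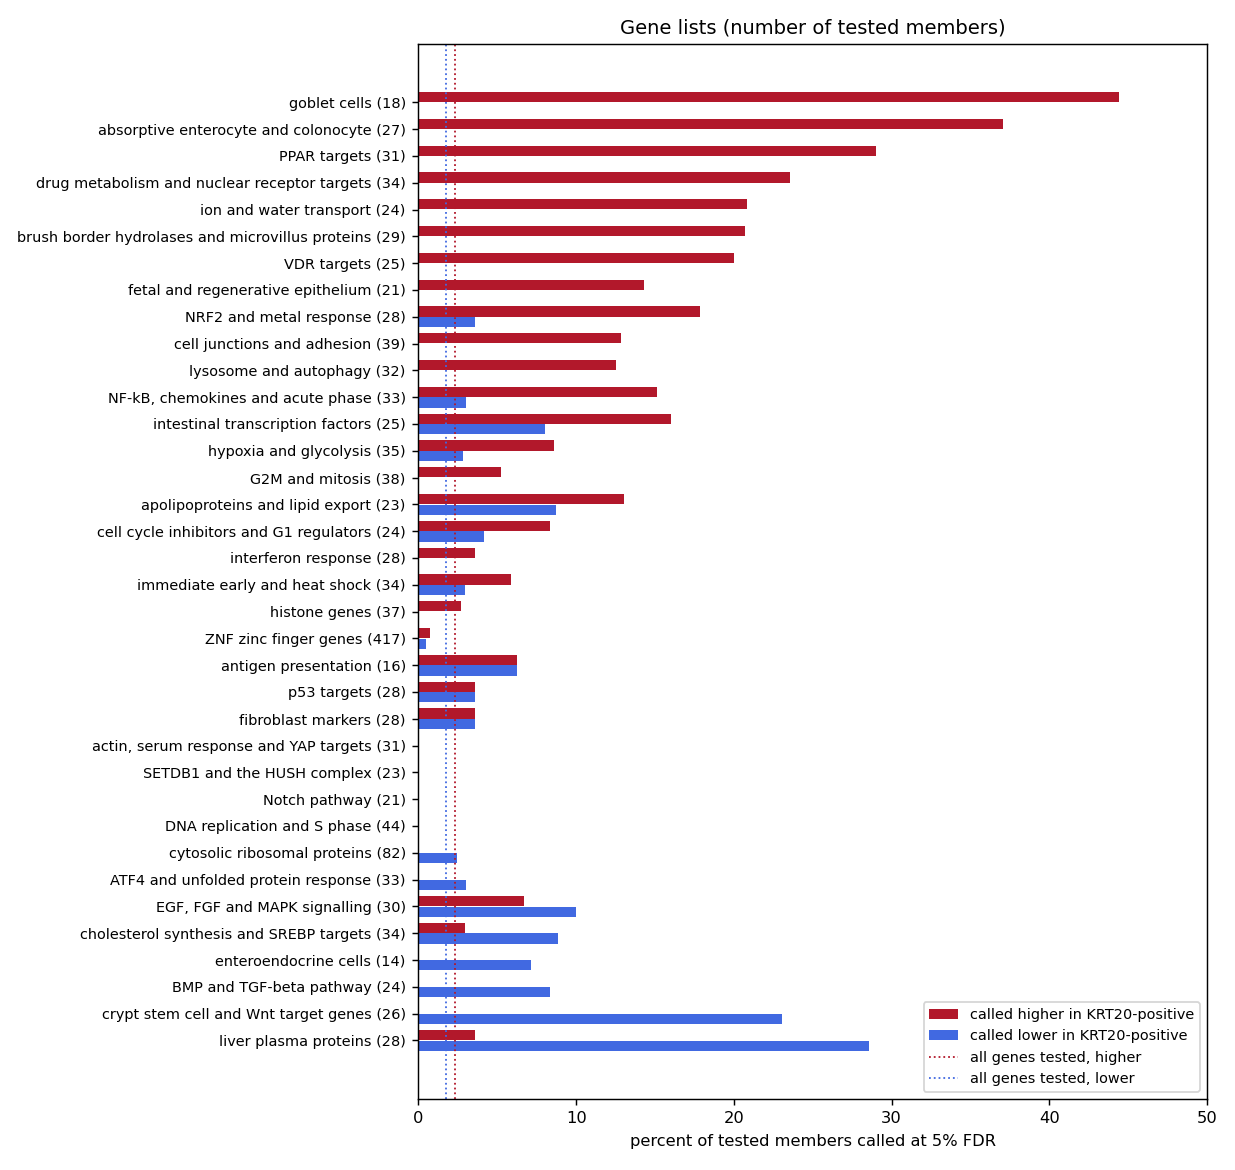
Percent of the tested members of each gene list (number of tested members in brackets) called higher (red) or lower (blue) in KRT20-positive cells at 5% FDR, for lists with at least 14 tested members; dotted lines give the same shares over all tested genes, 2.3% higher and 1.78% lower. Goblet and absorptive lists stand at the top with higher members alone, and liver plasma protein and crypt lists at the bottom.

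Several Wnt target and crypt stem cell genes fell. Of the tested list 0 of 26 were higher and 6 of 26 were lower, with a median of -0.27 and only 5 of 26 above 0. The count lower was 3 to 7 with each library left out, and 1 member was higher without KRT20-negative replicate 1. NKD1, a feedback inhibitor of Wnt signalling, had 12.7, 11.8 and 13.1 CPM in KRT20-positive cells, against 37.1, 28.1 and 34.0 CPM in KRT20-negative cells, a log2 fold change of -1.40 (SE 0.14, edgeR adjusted p = 3.13e-07). SMOC2, a secreted matrix protein of the stem cell signature, had 2.33, 1.19 and 0.917 CPM in KRT20-positive cells, against 8.44, 6.44 and 6.99 CPM in KRT20-negative cells, a log2 fold change of -2.29 (SE 0.35, edgeR adjusted p = 0.000229). RNF43, the ubiquitin ligase that removes Wnt receptors, had 30.3, 26.5 and 24.5 CPM in KRT20-positive cells, against 44.4, 39.8 and 41.5 CPM in KRT20-negative cells, a log2 fold change of -0.63 (SE 0.11, edgeR adjusted p = 0.000719). LGR5, the receptor that marks crypt base stem cells, had 6.17, 5.97 and 5.11 CPM in KRT20-positive cells, against 14.03, 11.9 and 7.19 CPM in KRT20-negative cells, a log2 fold change of -0.94 (SE 0.23, edgeR adjusted p = 0.0166). LGR5 was not called when any of 5 libraries was left out (edgeR adjusted p up to 0.100), KRT20-negative replicate 3 being the exception. ASCL2 and SP5, factors downstream of Wnt, were the other lower members, at log2 fold changes of -0.33 and -0.77. Other direct targets were not called: AXIN2 had 8.50, 13.7 and 9.04 CPM in KRT20-positive cells, against 9.81, 12.8 and 12.2 CPM in KRT20-negative cells, and MYC, CCND1, LEF1 and SOX9 had log2 fold changes of -0.13, 0.00, -0.03 and -0.03. TCF4, which encodes a basic helix-loop-helix factor and not the Wnt effector TCF7L2, had 6.85, 7.56 and 7.34 CPM in KRT20-positive cells, against 11.9, 13.9 and 21.2 CPM in KRT20-negative cells, a log2 fold change of -1.12 (SE 0.18, edgeR adjusted p = 0.000289), and -0.83 without KRT20-negative replicate 3.

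Few cell cycle genes were called between the fractions. Of 44 DNA replication genes 0 were called by edgeR, 5 passed an unadjusted p of 0.05, 1 was lower with DESeq2, and the median was -0.02. Of 38 mitosis genes 2 were higher and 0 lower, CDK1 and CCNB2, with a median of 0.06. CDK1 had 210.4, 199.6 and 219 CPM in KRT20-positive cells, against 175, 182 and 167 CPM in KRT20-negative cells, and it was not called when any 1 of 3 libraries was left out (edgeR adjusted p up to 0.144), and CCNB2 was not called when any 1 of 5 was left out (edgeR adjusted p up to 0.167). MKI67, the proliferation antigen, had 259.5, 239.6 and 286 CPM in KRT20-positive cells, against 255, 238 and 269 CPM in KRT20-negative cells, and the fractions overlapped. The inhibitor CDKN1A had 30.2, 28.0 and 29.1 CPM in KRT20-positive cells, against 17.8, 15.7 and 20.8 CPM in KRT20-negative cells, a log2 fold change of 0.68 (SE 0.17, edgeR adjusted p = 0.023), and was not called when any 1 of 5 libraries was left out (edgeR adjusted p up to 0.101).

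Plasma protein genes of the liver, which Caco2 cells are known to express, fell in part. 8 of 28 were lower and 19 were not called; the 8 are the largest share among the lists of at least 14 tested members. GC was higher, and the list had a median of -0.25 and 4 to 8 lower with each library left out. The fibrinogen genes FGA and FGG had log2 fold changes of -1.10 (SE 0.07, edgeR adjusted p = 5.87e-10) and -0.9999 (SE 0.15, edgeR adjusted p = 0.000688). FGA had 174, 173 and 182 CPM in KRT20-positive cells, against 371, 373 and 389 CPM in KRT20-negative cells, and the fractions did not overlap. FGG had 76.9, 75.9 and 74.4 CPM in KRT20-positive cells, against 179, 168 and 108 CPM in KRT20-negative cells, and its log2 fold change was -1.19 without KRT20-negative replicate 3. FGB, the gene of the remaining chain, had 260.3, 231 and 250.2 CPM in KRT20-positive cells, against 318, 299 and 277 CPM in KRT20-negative cells with a log2 fold change of -0.27 (SE 0.10, edgeR adjusted p = 0.154), which was not called. Both hairpin fractions lay above scramble cells, in which FGA had 9.90, 9.98 and 11.9 CPM in differentiation medium, against 54.0, 53.5 and 52.9 CPM in vehicle. The protease inhibitor SERPINF2 had 18.5, 17.6 and 18.997 CPM in KRT20-positive cells, against 29.7, 31.3 and 32.3 CPM in KRT20-negative cells. The other lower members were APOH, HPX, AMBP, AHSG and F10. GC, the vitamin D binding protein, was higher at 75.9 against 49.6 CPM in KRT20-positive against KRT20-negative cells. AMBP was not called without KRT20-positive replicate 1 or 2 (edgeR adjusted p up to 0.103). Albumin and transthyretin were not called: ALB had 352, 360.4 and 356 CPM in KRT20-positive cells, against 443, 479 and 369.6 CPM in KRT20-negative cells, and TTR had 1466, 1503 and 1563 CPM in KRT20-positive cells, against 1485, 1460.1 and 1672 CPM in KRT20-negative cells.

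Matrix and adhesion genes held the largest single fall. LAMA1, the laminin alpha chain of embryonic basement membranes, had 3.29, 1.99 and 4.06 CPM in KRT20-positive cells, against 22.8, 26.7 and 27.3 CPM in KRT20-negative cells, a log2 fold change of -3.03 (SE 0.19, edgeR adjusted p = 3.38e-10), and its KRT20-positive values lay below all 9 other Caco2 libraries. IGDCC3, an immunoglobulin domain protein of the DCC family, had 16.3, 11.3 and 18.9 CPM in KRT20-positive cells, against 37.6, 46.6 and 43.6 CPM in KRT20-negative cells, a log2 fold change of -1.46 (SE 0.15, edgeR adjusted p = 4.89e-07). IGDCC3 was not called between the scramble groups, with 34.4, 41.3 and 33.7 CPM in differentiation medium, against 37.9, 37.4 and 34.1 CPM in vehicle. OLFML3, a secreted olfactomedin domain protein, had 19.9, 26.01 and 21.6 CPM in KRT20-positive cells, against 63.5, 56.5 and 63.5 CPM in KRT20-negative cells, a log2 fold change of -1.44 (SE 0.11, edgeR adjusted p = 9.11e-09). FN1, fibronectin, had 6637, 8232 and 7801 CPM in KRT20-positive cells, against 12600.2, 12744 and 16797 CPM in KRT20-negative cells, a log2 fold change of -0.89 (SE 0.11, edgeR adjusted p = 0.000115), and -0.75 without KRT20-negative replicate 3. FN1 was the largest loss in CPM. TGFBI, a matrix protein induced by TGF-beta, had 94.5, 89.8 and 93.8 CPM in KRT20-positive cells, against 141, 134 and 204 CPM in KRT20-negative cells, a log2 fold change of -0.79, and -0.57 without that library. With BMP7 it made up the 2 of 24 lower genes of the BMP and TGF-beta list, of which 0 were higher. BMP7 was not called without KRT20-positive replicate 3 (edgeR adjusted p = 0.0655). Fibroblast markers as a list had 1 higher and 1 lower of 28 and a median of -1.10, which became -0.00 without KRT20-negative replicate 3. The part that the fibroblast genes of this library have in other results was not tested beyond leaving it out.

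**Figure D4:**
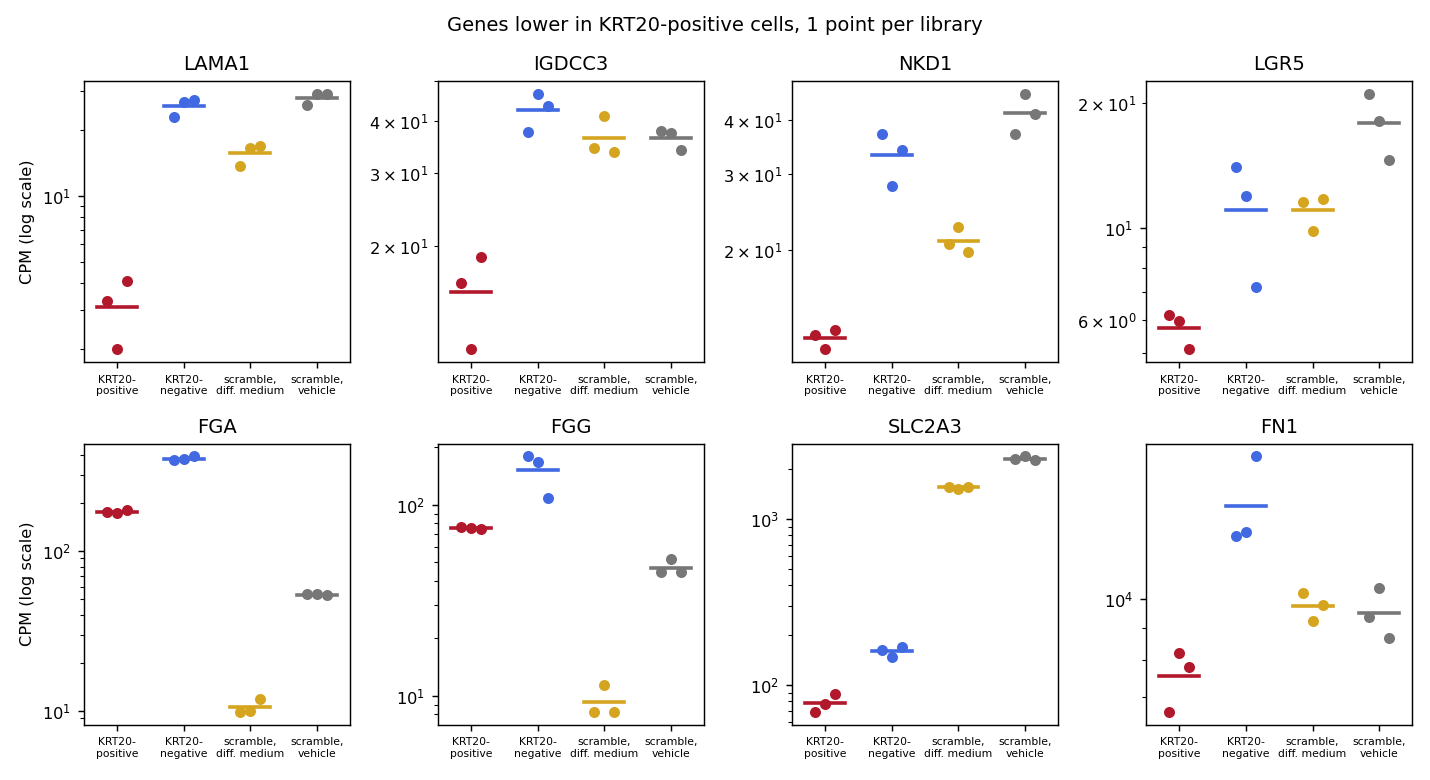
CPM (vertical log axis, scaled per panel) of 8 genes called lower in KRT20-positive cells, 1 point per library and a bar at the group mean, in the 4 Caco2 groups. The KRT20-positive libraries lie below the KRT20-negative ones in each panel; FGA and FGG lie above the scramble groups in both fractions, whereas SLC2A3 lies far below them.

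SLC2A3, the glucose transporter GLUT3, had 68.8, 77.0 and 88.0 CPM in KRT20-positive cells, against 163, 148 and 169 CPM in KRT20-negative cells, a log2 fold change of -1.04 (SE 0.08, edgeR adjusted p = 9.11e-09). The step between the fractions was small beside the distance to scramble cells, which had 1569, 1515 and 1569 CPM in differentiation medium, against 2287, 2384 and 2257 CPM in vehicle. SLC2A1, the transporter GLUT1, was higher at 102 against 80.3 CPM in KRT20-positive against KRT20-negative cells, and was not called when any 1 of 5 libraries was left out (edgeR adjusted p up to 0.0983). NDRG1, a hypoxia and differentiation gene, had 452, 454 and 478 CPM in KRT20-positive cells, against 284, 286 and 315 CPM in KRT20-negative cells, a log2 fold change of 0.65 (SE 0.08, edgeR adjusted p = 4.92e-06). In the hypoxia and glycolysis list as a whole 3 of 35 were higher and 1 lower, with 1 higher when any KRT20-positive library or KRT20-negative replicate 1 was left out. LDHA, PGK1, PDK1 and VEGFA were not called, at log2 fold changes of 0.13, 0.20, 0.06 and -0.03.

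Growth factor genes were mixed, with 2 of 30 higher and 3 lower, and 1 to 4 higher with each library left out. IGF2, insulin-like growth factor 2, had 1521, 1479.8 and 1452 CPM in KRT20-positive cells, against 2105, 2242 and 2166 CPM in KRT20-negative cells, a log2 fold change of -0.55 (SE 0.06, edgeR adjusted p = 2.4e-06). The readthrough symbol INS-IGF2 carried nearly the same values, so tags of the 2 symbols were counted for both. FGFR1 averaged 17.6 ± 1.11 CPM in KRT20-positive and 30.2 ± 4.42 CPM in KRT20-negative cells (SD, n = 3 each) and PHLDA1, an early response gene, also fell. DUSP6, the phosphatase that reports ERK activity, was higher at 101 against 61.3 CPM in KRT20-positive against KRT20-negative cells, as was the adaptor IRS2. SDCBP2, a syntenin, had 28.9, 31.6 and 29.2 CPM in KRT20-positive cells, against 7.98, 9.49 and 8.30 CPM in KRT20-negative cells, and its readthrough symbol FKBP1A-SDCBP2 shared those tags. C15orf48 had 23.9, 22.8 and 23.2 CPM in KRT20-positive cells, against 6.502, 6.91 and 5.27 CPM in KRT20-negative cells, a log2 fold change of 1.90 (SE 0.19, edgeR adjusted p = 3.38e-07).

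Interferon, zinc finger, ATF4 and ribosomal lists gave few calls. Of 28 interferon response genes 1 was higher, OAS1, with 42.5, 27.9 and 32.1 CPM in KRT20-positive cells, against 13.1, 12.2 and 19.6 CPM in KRT20-negative cells, and 0 were lower. Of 417 ZNF zinc finger genes, many of them SETDB1 targets in other cells, 3 were higher and 2 lower, and 3 higher and 5 lower with the block. Of 33 genes of the ATF4 and unfolded protein response 0 were higher and 1 lower, NUPR1, with 0.96, 0.663 and 1.44 CPM in KRT20-positive cells, against 3.76, 2.93 and 16.6 CPM in KRT20-negative cells, and NUPR1 was not called when any 1 of the 3 KRT20-positive libraries was left out. Its log2 fold change was -2.92, and -1.70 without KRT20-negative replicate 3. In the ATF4 list 11 genes had an unadjusted p under 0.05, and with the replicate number as a block 2 were higher and 3 lower. Of 82 cytosolic ribosomal protein genes 0 were higher and 2 lower, RPS10 and RPLP0, and neither was called when KRT20-negative replicate 3 or any 1 KRT20-positive library was left out. The lists of Notch genes (21 tested), clustered protocadherins (3), endothelial markers (3) and neuron and glia markers (3) had 0 members called by edgeR, 0 by DESeq2 and 0 at an unadjusted p under 0.05. Of 31 actin and YAP target genes 0 were called by edgeR, 1 was higher by DESeq2 and 5 had an unadjusted p under 0.05. Of 4 germline genes 0 were called by either tool and 1 had an unadjusted p under 0.05.

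The remaining lists gave a few calls each. NF-kB targets, chemokines and acute phase genes had 5 of 33 higher and 1 lower, with 2 to 5 higher when each library was left out; PI3, the elastase inhibitor elafin, averaged 202 ± 8.70 CPM in KRT20-positive and 111 ± 11.8 CPM in KRT20-negative cells (SD, n = 3 each), and REG4, a secreted lectin, 4.77 ± 0.393 CPM in KRT20-positive and 1.12 ± 0.408 CPM in KRT20-negative cells (SD, n = 3 each). NRF2 and metal response genes had 5 of 28 higher and 1 lower, with 3 higher without KRT20-positive replicate 3 and 0 lower without KRT20-positive replicate 1. AKR1C1, FTH1 and SLC39A4 had log2 fold changes of 0.96, 0.37 and 0.88, and FTH1 and AKR1C1 have close copies among which tags may be split. Lysosome and autophagy genes had 4 of 32 higher and 0 lower, with 1 to 4 higher when each library was left out. Fetal and regenerative epithelium genes had 3 of 21 higher and 0 lower, and 8 higher without KRT20-negative replicate 3. Cholesterol synthesis genes had 1 of 34 higher and 3 lower, and 0 higher and 0 lower without KRT20-positive replicate 1. Immediate early and heat shock genes had 2 of 34 higher and 1 lower, cell cycle inhibitors and G1 regulators 2 of 24 higher and 1 lower, p53 targets 1 of 28 higher and 1 lower, antigen presentation genes 1 of 16 higher and 1 lower, histone genes 1 of 37 higher and 0 lower, epithelial keratins 1 of 8 higher, KRT20 itself, and leukocyte markers 1 of 5 higher, LYZ. With each library left out, cell cycle inhibitors had 0 to 2 higher, p53 targets 0 or 1, histone genes 0 or 1, and immediate early genes 2 or 3. All 20 leukocyte markers, 6 of them at 0 in the 6 sorted libraries, summed to 106 to 110 CPM in KRT20-positive cells, against 74.1 to 82.7 CPM in KRT20-negative cells. LYZ, also in the tuft and Paneth list above, made up most of each sum, so no difference in leukocyte markers as a set is read from it.

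The step between the fractions was then set beside the effect of differentiation medium in scramble cells, which shares no library with it, in order to see which of the genes also differed there. Of the 321 genes higher in KRT20-positive cells, 181 (56.4%) were also higher in differentiation medium than in vehicle, against 10.4% of all tested genes, and 19 were lower there. Of the 249 genes lower in KRT20-positive cells, 104 (41.8%) were lower in medium, against 10.5% of all tested genes, and 9 were higher. The first overlap was 12.4% of all genes higher in medium, and the second was 7.07% of all genes lower in medium. With the replicate number as a block, 164 genes were lower in both. LGALS4, CEACAM5, MUC13, LCT and CPT1A were higher in both comparisons, with log2 fold changes in medium of 2.57, 2.50, 1.60, 2.41 and 2.11. The value for LGALS4 is uncertain, since its 0.123, 0.135 and 0.153 CPM in vehicle lay below the floor of 3 counts. In medium LGALS4 had 0.589, 1.38 and 0.774 CPM. FCGBP and MTTP had negative log2 fold changes in medium, of -1.63 and -0.83, but MTTP was at a few CPM in scramble cells, and its libraries in medium and vehicle overlapped. FCGBP was near the floor there, at 0.118, 0.922 and 0.516 CPM, so its fold change is uncertain as well. NKD1, LGR5, FGA and FGG were lower in both, with log2 fold changes in medium of -0.98, -0.69, -2.34 and -2.35. IGDCC3 and FN1 were lower in KRT20-positive cells and not called in medium, at -0.01 and 0.04.

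**Figure D5:**
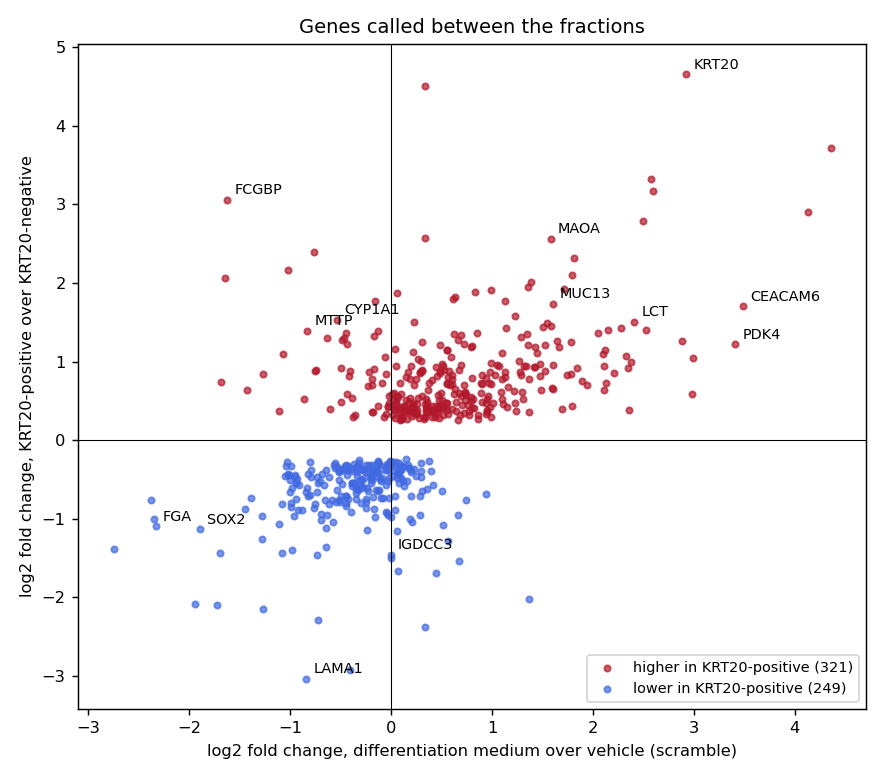
Log2 fold change of KRT20-positive over KRT20-negative hairpin cells (vertical axis) against that of differentiation medium over vehicle in scramble cells (horizontal axis), for the 570 called genes, with no library in common. Of the 321 genes above 0, 181 were also called higher in medium; of the 249 below 0, 104 were also called lower.

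The 3 KRT20-positive libraries lay above all 9 other Caco2 libraries for 181 of the 321 higher genes, and below all 9 for 96 of the 249 lower genes. Over all tested genes the shares were 4.02% and 2.61%, but the called genes already differed from the KRT20-negative libraries, so nothing is read from the excess. Of the 82 genes at least 2-fold higher, 56 lay above all 9 others, and 36 were called in neither direction in medium.

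SW480, another colorectal cancer line, was sorted on a keratin with a SETDB1 hairpin, and the step between its fractions was compared with that in Caco2. SW480 was chosen because its KRT20 reads differed between its fractions, so measured values entered this choice. The series also holds HCT116 cells with a SETDB1 hairpin sorted on a keratin, which were not compared here. The difference of the steps was called for 180 of 14809 genes (1.22%), 110 higher and 70 lower in Caco2 than in SW480, and for 13 of the 321 and 9 of the 249 genes called in Caco2. Of the 321 genes higher in Caco2, 19 were higher and 11 lower in KRT-positive SW480 cells, and of the 249 lower ones 19 were higher and 19 lower, against 327 higher and 480 lower of all 14809. For the 249 genes both shares thus exceeded those over all genes. For the 321 genes the share higher did so, and the share lower was near that over all genes. These shares carry no test. STIM1, a calcium sensor of the endoplasmic reticulum, averaged 105 CPM in KRT20-positive and 103 CPM in KRT20-negative Caco2 cells, against 654 CPM in KRT-positive and 119 CPM in KRT-negative SW480 cells, a difference of steps of -2.43 on the log2 scale (edgeR adjusted p = 6.66e-04). Leaving out any 1 Caco2 library left 12 to 20 genes, and leaving out any 1 SW480 library gave 226 to 665. The SW480 replicates spread far more than the Caco2 replicates, with Spearman's rho of 0.859 to 0.918, so the number of genes that differ between the lines is uncertain. In simulated counts this test called 0 of 100 genes given a 2-fold difference and 8 of 99 given a 4-fold one. A gene that was not called may therefore still differ between the lines.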

How the data were processed

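The authors deposited raw counts of QuantSeq 3′ tags per gene symbol, 1 table per library; Bowtie2, edgeR and hg19 are named in the submitters' processing notes, without versions. Strandedness and the treatment of tags that fit several places are not given in the sources used here. Lines that repeat a symbol were summed, which turned 25737 lines into 24462 symbols. Genes were filtered with filterByExpr, scaled by TMM and tested with edgeR 4.0.16 (quasi-likelihood F test, robust, R 4.3.3, limma 3.58.1) over all 12 Caco2 libraries, with the contrast KRT20-positive minus KRT20-negative and Benjamini-Hochberg adjustment over all 13968 tested genes; calls are at 5% FDR. The difference between lines was tested as an interaction over 12 sorted Caco2 and SW480 libraries. CPM of that fit are scaled over those libraries and differ slightly from the others. The code was tested on simulated counts with known changes. The test between the Caco2 fractions called 89 of 100 genes changed 2-fold and 100 of 100 changed 4-fold. The test of the difference between lines called 0 of 100 changed 2-fold and 8 of 99 changed 4-fold, so it missed most simulated differences. That simulation gave each gene the same level in both lines, unlike the data, so its shares are not those of the real test. In the data the test called FTH1, SLC3A2 and SQSTM1 at differences of 1.24, 1.08 and 1.07 on the log2 scale.

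Same-numbered libraries of the 2 fractions deviated together (Pearson's r of 0.241, 0.216 and 0.143 across 7418 genes of at least 20 CPM, which are not independent replicates). Libraries of different numbers had r of -0.282 to 0.0637. Deviations were taken from the mean of each fraction, which pulls these values down where same-numbered libraries go together. The labels do not state that the numbers mark a shared culture, and the reported fit does not pair them. A fit with the number as a block was an alternative. Other alternatives were RLE size factors, library totals, other filters on low counts, DESeq2 1.42.0, the 6 sorted libraries alone, and each library left out.

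Named genes are KRT20, SETDB1, per direction the 15 called genes with the largest log2 fold change (at least 10 CPM in the higher group, no overlap) and the 6 with the largest CPM difference, the 4 members of each of 43 lists with the smallest adjusted p, and per direction 5 genes of the line difference. Other members of a list were named to account for its count or as well-known members that were not called, and every such gene was chosen after its values were seen. The comparison, the members and the lists were chosen with earlier results of these data known. Intervals and floors cover counting error only, since the tags are not independent molecules. Promoters come from RefSeq (GRCh38.p14), where 132 of 187 named genes matched. Some named genes are not reported here.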

Additional observations from a re-analysis of the deposited data

Results flagged for a closer look

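For 18 of the genes named in the comparison or in the difference between the lines, the step between keratin-positive and keratin-negative cells differed between Caco2 and SW480 by the interaction test. The share over all tested genes was 1.22%, 10 of the 18 were named because this difference was called, and the number of genes called was 12 to 20 with any 1 Caco2 library left out and 226 to 665 with any 1 SW480 library left out. Each value below is the Caco2 step minus the SW480 step on the log2 scale, with edgeR's adjusted p, and the means give keratin-positive against keratin-negative cells. TIMP3, an inhibitor of matrix proteases, had a difference of 2.37 (adjusted p = 0.00141), with 356 against 379 CPM in Caco2 and 11.2 against 61.9 CPM in SW480. CYP24A1 had 3.25 (adjusted p = 0.00145), with 183 against 149 CPM in Caco2 and 90.1 against 696 CPM in SW480. TNFAIP2 had 2.48, with 10.4 against 7.69 CPM in Caco2 and 88.6 against 367 CPM in SW480. NDRG1 had 2.01, with 471 against 301 CPM in Caco2 and 102 against 261 CPM in SW480. STIM1 had -2.43, HIPK2 -2.11 and ATP9A -1.61, with 64.0 against 107 CPM in Caco2 and 273 against 106 CPM in SW480 for HIPK2 and 92.0 against 92.1 CPM in Caco2 and 386 against 127 CPM in SW480 for ATP9A. SLC27A2, a fatty acid transporter, had -1.97, with 234 against 186 CPM in Caco2 and 88.2 against 17.8 CPM in SW480. RNF43, lower in KRT20-positive Caco2 cells, had -1.65, with 27.7 against 42.8 CPM in Caco2 and 63.4 against 31.3 CPM in SW480.

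IGF2 and INS-IGF2, which share their tags, had -2.13 and -2.13, with 1516 against 2218 CPM in Caco2 and 115 against 38.6 CPM in SW480 for IGF2. EGR1 had -1.85, with 435 against 536 CPM in Caco2 and 780.3 against 268 CPM in SW480. FTH1, SLC3A2 and SQSTM1 had 1.24, 1.08 and 1.07. For 3 genes a group stood at or near 0, so the fitted difference depends on the prior count and is no bound: ADAMTS15 had 11.69, with 31.9 against 22.8 CPM in Caco2 and 0 against 33.5 CPM in SW480. MGAT3 had 10.76, with 30.8 against 18.9 CPM in Caco2 and 0 against 15.04 CPM in SW480. DLX4 had -8.50, with 30.6 against 30.3 CPM in Caco2 and 18.4 against 0.0369 CPM in SW480. The Caco2 and SW480 tables may differ in how tags were assigned to genes, and the part of this in the differences was not tested.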

How the results depend on the processing

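Under RLE size factors, library totals, other filters and DESeq2, the counts of genes called between the Caco2 fractions stayed within 1.5 times the reported ones. With the replicate number as a block, 803 genes were called, against 570, with 427 higher, against 321, and 376 lower, against 249. With the 6 sorted libraries alone, 307 genes were called, 212 higher and 95 lower, and 148 were lower when the block was added. With each library left out in turn, 297 to 651 genes were called, 192 to 376 higher and 96 to 275 lower; the lowest counts came without a KRT20-positive library and the highest without KRT20-negative replicate 3. Of 122 called named genes, 79 kept the call with each library left out, 43 lost it without at least 1, and 0 of the 122 changed sign in the alternatives run, whereas 5 of the 65 that were not called did. Genes lower in both the fractions and the medium comparison numbered 164 with the block, an alternative chosen after seeing the data, against 104. Under the block 0 of the called named genes lost the call and 15 others gained it, and in the lists the liver plasma proteins had 10 lower and the crypt list 1 higher and 7 lower. The difference between the lines was called for 712 genes with DESeq2, 23 with a replicate block within each line, and 12 to 665 with each library left out, against 180. The cause was not tested. Depth limits genes near the floor of 3 counts, such as FABP2.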

Other observations

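Some groups of genes outside the lists were looked at after their values were seen, so their counts carry no test. Over all tested genes 2.3% were higher and 1.78% lower. Of 24 tested SNAR genes, small noncoding RNAs transcribed by RNA polymerase III, 8 were higher and 0 lower in KRT20-positive cells; copies of this family are nearly identical, several had the same values, and they are not independent. SNAR-B1 averaged 72.1 ± 10.6 CPM in KRT20-positive and 37.5 ± 5.78 CPM in KRT20-negative cells (SD, n = 3 each). Of 220 solute carrier genes 17 were higher and 4 lower, the lower share being near that over all tested genes. Of 29 HOX genes 1 was higher and 0 lower, and of 8 UGT genes 0 were higher and 0 lower. Of 20 V-ATPase subunits, the proton pump of acidic compartments, 3 were higher and 0 lower.

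Of 4 alcohol dehydrogenases 0 were higher and 2 lower: ADH4 averaged 29.4 ± 3.29 CPM in KRT20-positive and 54.0 ± 3.83 CPM in KRT20-negative cells (SD, n = 3 each), and ADH6 averaged 6.59 ± 1.04 CPM in KRT20-positive and 11.1 ± 1.90 CPM in KRT20-negative cells (SD, n = 3 each). Of 12 imprinted genes 2 were higher and 3 lower. KCNQ1OT1, a noncoding RNA, averaged 1053 ± 91.5 CPM in KRT20-positive and 1282 ± 90.2 CPM in KRT20-negative cells (SD, n = 3 each), and PEG10 averaged 173 ± 13.2 CPM in KRT20-positive and 240.4 ± 12.7 CPM in KRT20-negative cells (SD, n = 3 each), both lower, as was IGF2. PHLDA2 averaged 34.2 ± 4.69 CPM in KRT20-positive and 22.7 ± 1.90 CPM in KRT20-negative cells (SD, n = 3 each) and SLC22A18 averaged 25.1 ± 3.30 CPM in KRT20-positive and 16.7 ± 3.12 CPM in KRT20-negative cells (SD, n = 3 each), both higher.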
